A study of Mus musculus with 32 samples.

Results

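The AMPK subunit genes were taken as the 6 genes that encode the alpha, beta and gamma subunits of AMP-activated protein kinase, out of 53558 genes listed for each library. They were chosen by name, as *Prkaa1*, *Prkaa2*, *Prkab1*, *Prkab2*, *Prkag1* and *Prkag2*, and not by any measured value. Earlier results of these data were known when they were chosen. All 6 were measured in all 32 libraries and passed the filter on low counts in every comparison. The remaining gamma gene, *Prkag3*, is described once below because it was nearly undetected.

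AMPK is a heterotrimer that senses the energy state of the cell. The alpha subunit carries the kinase, the beta subunit holds the complex together and carries a carbohydrate-binding module, and the gamma subunit binds AMP, ADP and ATP through its CBS repeats. LKB1, the kinase encoded by *Stk11* (called *Lkb1* in the study), activates AMPK by phosphorylating a threonine in the activation loop of the alpha subunit. This step acts on the protein. Active AMPK restrains lipid and protein synthesis and favors catabolism. RNA levels report neither phosphorylation nor kinase activity.

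The RNA came from FACS-isolated neoplastic cells of autochthonous mouse lung tumors, after exclusion of cells positive for CD45, CD31, F4/80 or Ter119. Every tumor carried Rosa26 LSL-tdTomato and was started with lentiviral Cre in mice aged 6 to 12 weeks on a mixed C57BL/6J:129 background. KT tumors kept wild-type *Lkb1* and were untreated (n = 4, 2 of them male). In the other groups both *Lkb1* alleles were XTR, an intronic gene trap that Cre inverts at initiation to stop *Lkb1* expression and that FLPo-ERT2, expressed from Rosa26, removes when tamoxifen is given. Non-restored tumors (n = 10) pooled 4 libraries given tamoxifen without FLPo-ERT2 and 6 given vehicle with it, and 3 of the 10 were male. Restored tumors (n = 7, all female) had FLPo-ERT2 and received 4 mg doses of tamoxifen for 2 weeks. The Trp53-deficient groups added Trp53 flox/flox: the non-restored group had 7 libraries from 4 animals (2 of them male), which were summed by animal, and pooled 2 animals given vehicle with FLPo-ERT2 and 2 given tamoxifen without it. The Trp53-deficient restored group had 4 libraries, all female, with FLPo-ERT2 and tamoxifen. Trp53 wild-type tumors were collected 24 to 27 weeks after initiation and Trp53-deficient tumors after 16 to 19 weeks, so tumor age and *Trp53* status cannot be told apart. The study describes fewer mice than Trp53 wild-type libraries, so some libraries may share a mouse, and p-values then measure only the spread between libraries. Trp53-deficient animals were told apart by library title alone, so the same may hold for them.

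The libraries held 1302482 to 5943951 expected counts. *Stk11* checked the labels: it lay between 16.7 and 27.5 counts scaled to the library total (CPM) in KT, between 0 and 1.08 CPM in non-restored, and between 11.7 and 22.5 CPM in restored tumors. In Trp53-deficient tumors *Stk11* lay between 0 and 0.513 CPM without and between 8.42 and 14.9 CPM with restoration. The defining markers of the labelled cell type were present, since *Epcam*, *Nkx2-1* and *Sftpc* (surfactant protein C) were above 0 in all 29 samples. Among markers of excluded cells, *Cd3e* (T cells) was at 0 counts in 28 of 29 samples, whereas *Ptprc* (CD45) reached 14.8 TPM and *Pecam1* (CD31) 20.8 TPM. The 7 immune markers summed to between 6.03 and 76.3 TPM and the 4 endothelial markers to between 0.40 and 32.5 TPM. The 4 fibroblast markers summed to between 0.83 and 391 TPM and the 4 red blood cell markers to between 0 and 10.4 TPM. In a pooled sample, fewer cells of a type cannot be told apart from less RNA per cell. A pair of samples stood apart by low alveolar type II markers: non-restored replicate 8, whose 8 markers summed to 5962 TPM against 36524 to 99006 in the other non-restored libraries, and Trp53-deficient non-restored animal 4, at 6577 TPM.

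The site that connects LKB1 to these genes is shown first, because it is shared by both catalytic subunits. Each line is the coding strand in GENCODE M21 (GRCm38, the build the submitters name as mm10), with the threonine codon in capitals.
Prkaa1: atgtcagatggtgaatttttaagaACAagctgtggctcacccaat
Prkaa2: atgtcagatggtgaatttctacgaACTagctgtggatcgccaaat
The *Prkaa1* stretch is at chr15:5169943-5169987 on the plus strand, in exon 5, and its threonine is residue 183 of the longest annotated protein. The *Prkaa2* stretch is at chr4:105049363-105049407 on the minus strand, also in exon 5, and its threonine is residue 172. Of the 45 bases, 39 were identical, and all 15 codons encoded the same amino acid. Over the whole proteins, *Prkaa1* and *Prkaa2* matched at 76.4% of 546 aligned residues, *Prkab1* and *Prkab2* at 71.3% of 268, and *Prkag1* and *Prkag2* at 75.2% of 330.

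The subunit genes differed widely in level. Per transcript length, in TPM (length-scaled transcript abundance) over the 29 samples, *Prkab1* was the most abundant, with a mean of 47.6 TPM and a range of 24.97 to 76.3. *Prkaa1* followed at 24.8 TPM (17.9 to 38.2), and *Prkab1* exceeded it in all 29 samples. *Prkag1*, at 18.1 TPM (8.48 to 28.8), was below *Prkaa1* in 22 of 29 samples, and *Prkag2*, at 15.9 TPM (5.80 to 30.9), was below *Prkag1* in 19. These middle 3 genes overlapped in range, and their order changed between samples. *Prkaa2* had a mean of 6.80 TPM (0.83 to 17.6) and *Prkab2* 3.18 TPM (at most 6.24), with *Prkaa2* the higher of the pair in 20 of 29 samples. Summed by class, the alpha genes gave 31.7 ± 5.21 TPM (SD, n = 29), the beta genes 50.8 ± 12.6 TPM and the gamma genes 34.0 ± 8.63 TPM. *Prkag3*, the gamma gene known mainly from skeletal muscle, had 29 counts in total, was at 0 in 20 of 32 libraries, and exceeded 3 counts in 2, with a highest count of 7.

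**Figure D1:**
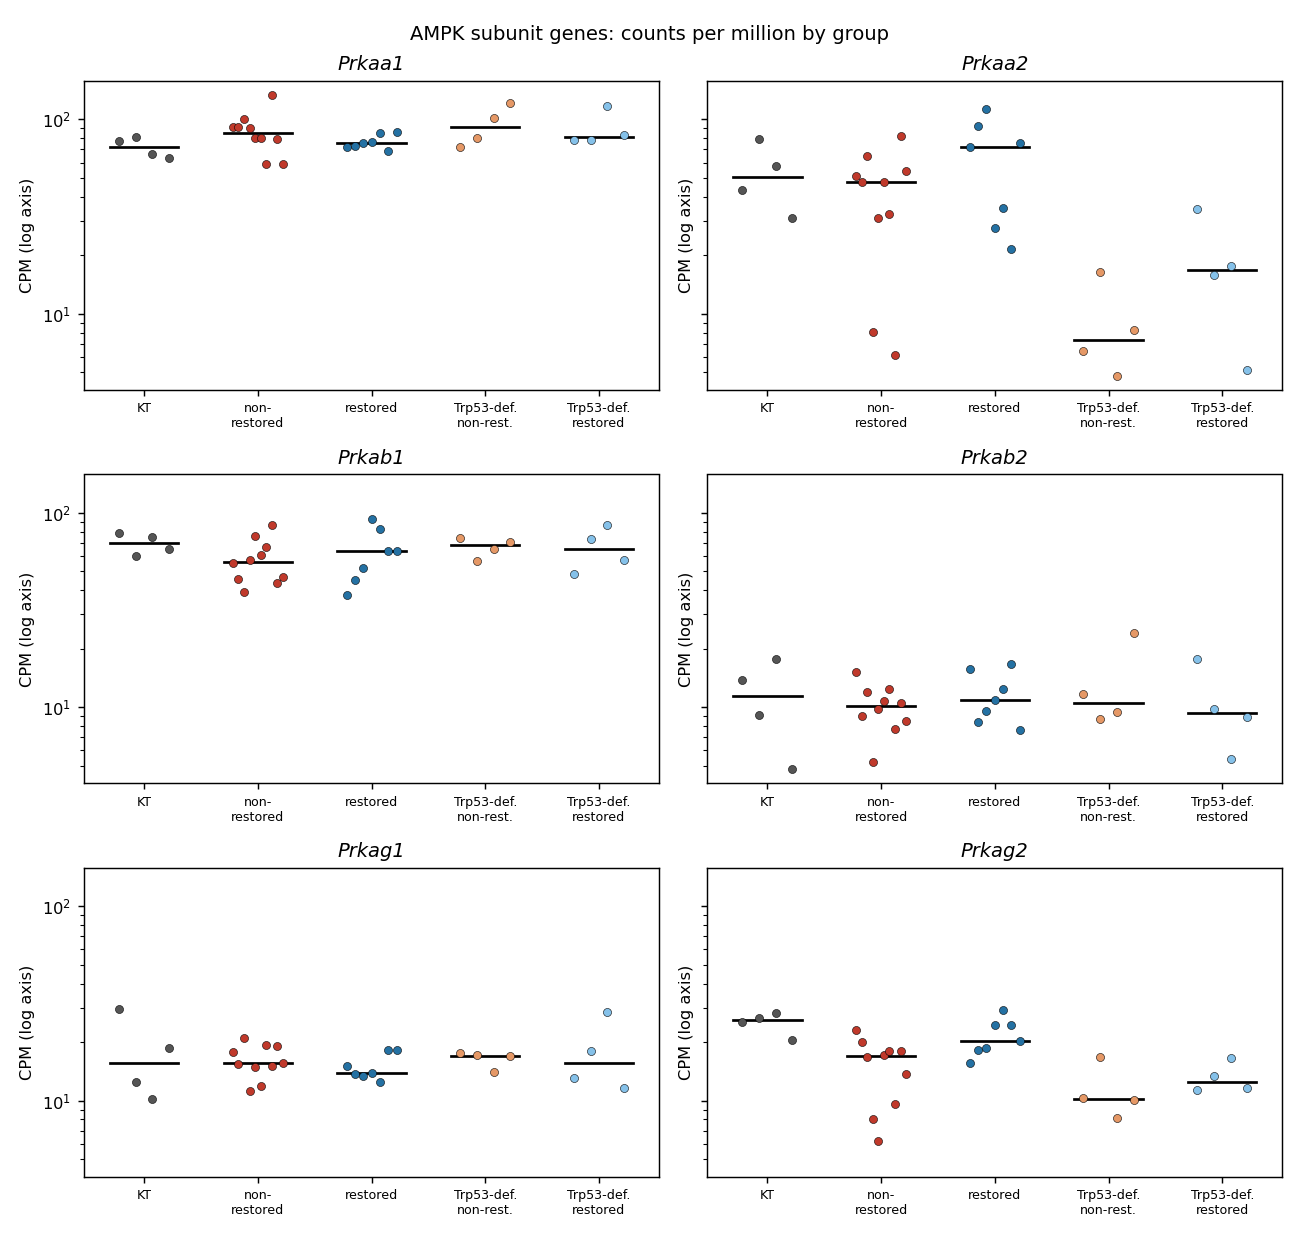
Library-scaled counts (CPM, log axis) of the 6 AMPK subunit genes in each of the 29 samples, by group; each point is a library or, for Trp53-deficient non-restored tumors, an animal, and bars are medians. *Prkaa2* ranges from 4.80 to 113 CPM, whereas *Prkaa1* stays between 58.7 and 133 CPM.

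*Prkaa1*, which encodes the alpha1 catalytic subunit (chr15:5143861-5181899, plus strand), was steady. It had 77.8, 80.8, 66.0 and 63.3 CPM in KT replicates 1 to 4. In non-restored tumors it ranged from 58.7 to 133 CPM with a median of 85.4, and in restored tumors from 69.2 to 86.1 CPM with a median of 75.8. The 4 Trp53-deficient non-restored animals had 72.3, 79.8, 102 and 122 CPM, and the 4 restored ones 78.3, 78.7, 117 and 83.4 CPM. All groups overlapped, and the highest value was that of non-restored replicate 8. The largest difference in size was a log2 difference of 0.28 (SE 0.16) for non-restored against KT tumors (edgeR quasi-likelihood adjusted p = 0.356). Its 95% interval reached from -0.07 to 0.62.

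*Prkaa2*, which encodes the alpha2 catalytic subunit (chr4:105029874-105109890, minus strand), was the most variable member. It had 43.4, 79.1, 57.4 and 31.2 CPM in KT tumors. Non-restored tumors ranged from 6.16 to 82.4 CPM with a median of 47.6, and restored tumors from 21.5 to 113 CPM with a median of 72.4. The Trp53-deficient non-restored animals had 6.41, 16.5, 4.80 and 8.22 CPM, and the Trp53-deficient restored ones 34.5, 15.9, 17.5 and 5.13 CPM. Of the 10 non-restored libraries, 8 were above every Trp53-deficient non-restored animal, and the other 2, replicates 4 and 8 at 8.02 and 6.16 CPM, lay among them. Of the 7 restored libraries, 5 were above every Trp53-deficient restored sample. The within-group SD of *Prkaa2* was 1.01 on the log2 CPM scale, larger than in 87.9% of 13273 genes, whose median was 0.447. The within-group SDs of the other 5 members lay between 0.276 for *Prkaa1* and 0.532 for *Prkab2*.

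The promoter of *Prkaa2* is shown because this gene varied most. It covers 250 bases before and 50 after the start in RefSeq on GRCm38.p6, at chr4:105109849-105110148 on the minus strand, with GC boxes (GGGCGG on either strand) in capitals.
Prkaa2 promoter: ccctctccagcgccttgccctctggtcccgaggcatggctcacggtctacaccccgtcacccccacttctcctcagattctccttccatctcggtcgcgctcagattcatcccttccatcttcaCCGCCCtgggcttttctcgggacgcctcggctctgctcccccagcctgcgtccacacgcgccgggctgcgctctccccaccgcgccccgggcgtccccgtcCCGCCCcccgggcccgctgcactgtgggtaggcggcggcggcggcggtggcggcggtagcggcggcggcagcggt
It held 2 GC boxes, a motif found in 35.7% of 32851 promoters, and 35 CpG dinucleotides, more than 93.0% of promoters. The *Prkaa1* promoter held 5 GC boxes and 52 CpG, more than 99.4% of promoters. Neither held TTGCNNAA (a C/EBP consensus, in 10.8% of promoters), CACGTG (7.15%), TGACGTCA (1.79%), TATAAA (13.6%) or CCAAT (37.4%), each searched on both strands.

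*Prkab1* and *Prkab2* encode the beta scaffold subunits (chr5:116013586-116024508, minus strand, and chr3:97658193-97673812, plus strand). *Prkab1* had 79.2, 60.0, 75.01 and 65.2 CPM in KT tumors, 39.1 to 86.4 CPM with a median of 56.0 in non-restored tumors, and 37.8 to 93.4 CPM with a median of 63.5 in restored tumors. In Trp53-deficient tumors *Prkab1* had 74.4, 56.8, 65.4 and 70.8 CPM without and 48.7, 73.2, 86.2 and 56.9 CPM with restoration. The ranges overlapped, and 6 of 10 non-restored libraries were below every KT library. *Prkab2* was low, at 13.8, 9.16, 17.6 and 4.79 CPM in KT tumors, 5.21 to 15.1 CPM (median 10.2) in non-restored and 7.61 to 16.7 CPM (median 10.9) in restored tumors. It had 11.7, 8.70, 9.42 and 24.2 CPM in Trp53-deficient non-restored animals and 17.6, 9.79, 5.39 and 8.92 CPM in Trp53-deficient restored ones. The *Prkab2* values rested on 10 to 78 counts per library, and no group stood apart.

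*Prkag1* and *Prkag2* encode the nucleotide-binding gamma subunits (chr15:98812797-98831521 and chr5:24862744-25100642, both minus strand). *Prkag1* had 29.6, 12.5, 10.2 and 18.7 CPM in KT tumors, 11.2 to 20.9 CPM (median 15.6) in non-restored and 12.4 to 18.2 CPM (median 13.9) in restored tumors. In Trp53-deficient tumors it had 17.6, 17.1, 14.0 and 16.9 CPM without and 13.1, 18.02, 28.7 and 11.6 CPM with restoration, and all groups overlapped. *Prkag2* lay lower in most non-restored than in KT libraries. It had 25.5, 26.6, 28.3 and 20.6 CPM in KT tumors, 6.19 to 23.2 CPM (median 17.0) in non-restored and 15.7 to 29.4 CPM (median 20.2) in restored tumors. Of the 10 non-restored libraries, 9 were below every KT library, and 4 were below every restored library. *Prkag2* had 10.3, 16.8, 8.17 and 10.0 CPM in Trp53-deficient non-restored animals and 11.3, 13.3, 16.6 and 11.6 CPM in Trp53-deficient restored ones. Antisense genes *Prkag2os1* and *Prkag2os2* overlap *Prkag2* and had at most 2 and 5 counts in a library; whether reads were counted by strand was not given in the sources used here, so their reads cannot be told apart from those of *Prkag2*.

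The first comparison asked what *Lkb1* restoration did to these genes in Trp53 wild-type tumors. None of the 6 passed an adjusted p of 0.05 (edgeR), where 1.87% of 12636 genes did, and none was called by DESeq2, where 3.7% were. The groups overlapped for all 6 members, while 0.578% of genes had groups that did not overlap in CPM. At an unadjusted p under 0.05, 1 of 6 members passed against 15.1% of all genes. That was *Prkag2*, with a log2 difference of 0.52 (SE 0.21, 95% interval 0.08 to 0.96, adjusted p = 0.236). For *Prkaa2* the log2 difference was 0.54 (SE 0.43, interval -0.36 to 1.43, adjusted p = 0.608). Without non-restored replicate 8, edgeR gave 0.46 for *Prkag2* (adjusted p = 0.293) and 0.40 for *Prkaa2* (adjusted p = 0.704). With female libraries alone, edgeR gave 0.62 for *Prkag2* (adjusted p = 0.252) and 0.85 for *Prkaa2* (SE 0.49, adjusted p = 0.445). The *Prkaa1* interval reached from -0.46 to 0.09, that of *Prkab1* from -0.26 to 0.48, that of *Prkab2* from -0.32 to 0.67 and that of *Prkag1* from -0.50 to 0.26. These 4 intervals leave out a log2 difference of 1. The median over the 6 members was 0.14, beside -0.01 over all genes tested. The muscle marker *Myh6* moved with this comparison (log2 difference 1.33, SE 0.27, adjusted edgeR p = 0.010), while *Actc1*, *Acta1* and *Ckm* were at 0 counts in 26, 22 and 19 of 29 samples. Of the 8 muscle markers 2 were tested here, and the other had no unadjusted edgeR p under 0.05. The 8 muscle markers summed to between 10.9 and 41.6 TPM in non-restored and between 19.3 and 54.1 TPM in restored tumors, and their part in the *Prkag2* difference was not tested.

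**Figure D2:**
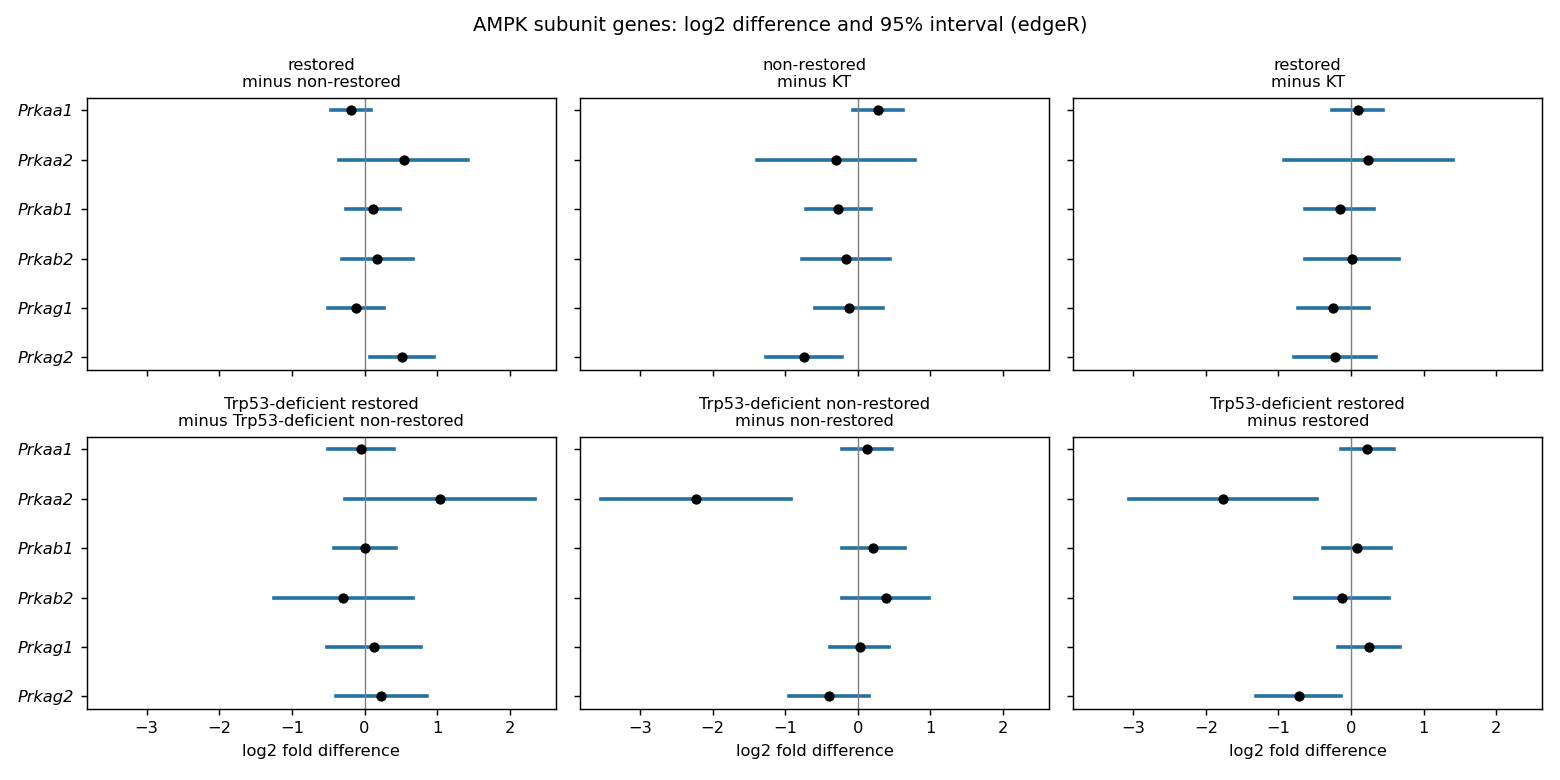
Log2 differences of the 6 members in 6 comparisons (x axis, log2 fold), as points with 95% intervals derived from the edgeR F tests. Intervals leave out 0 for *Prkag2* in restored minus non-restored (0.08 to 0.96), non-restored minus KT (-1.27 to -0.21) and Trp53-deficient restored minus restored (-1.31 to -0.13), and for *Prkaa2* in both comparisons between *Trp53* backgrounds.

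The comparison for loss of *Lkb1* was non-restored against KT tumors, which share the non-restored libraries with the comparison above. KT mice were untreated and, by the study's methods, received a lower dose of virus than the XTR mice. Treatment and dose therefore cannot be told apart from *Lkb1* status in comparisons with KT. *Myh6* was again different (log2 difference -1.24, SE 0.32, adjusted edgeR p = 0.0238). The other of the 2 muscle markers tested went the opposite way, higher in non-restored tumors with an unadjusted edgeR p under 0.05. The median log2 difference of these 2 markers was 0.58. No member was called, where 5.86% of genes were (8.57% by DESeq2, again with no member). All 6 overlapped between these groups, and 3.91% of genes did not. The log2 difference of *Prkag2* was -0.74 (SE 0.25, interval -1.27 to -0.21), with an adjusted p of 0.0885 by edgeR. Without replicate 8 it was -0.68 (adjusted p = 0.103). It was the 1 member of 6 with an unadjusted p under 0.05, against 20.8% of all genes. *Prkaa2* differed by -0.30 (SE 0.52, adjusted p = 0.794). The median over the members was -0.22, beside 0.03 over all genes tested. Restored against KT tumors gave no call and no unadjusted p under 0.05 among the members, where 0.459% of genes were called by edgeR, 1.33% by DESeq2 and 10.5% passed unadjusted. All 6 members overlapped there too, and 2.79% of genes did not. There *Prkag2* differed by -0.22 (SE 0.27, interval -0.78 to 0.34) and *Prkaa2* by 0.24 (SE 0.56, interval -0.93 to 1.40), and the members' median was -0.07 beside 0.01 over all genes.

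In Trp53-deficient tumors, restoration again left all 6 members uncalled. No gene was called by edgeR (0.0% of 12516), while 748 genes (5.98%) but no member had an unadjusted p under 0.05. DESeq2 called 0.184% of genes, with no member among them and no adjusted p given for *Prkaa2*, *Prkab2* or *Prkag2*. The groups overlapped for all 6 members, and did not for 3.63% of genes. *Prkaa2* had the largest log2 difference of the members, 1.04 (SE 0.58, interval -0.26 to 2.34, adjusted p = 0.804), and 2 of 4 restored samples were above every non-restored animal. *Prkag2* differed by 0.23 (SE 0.28, interval -0.40 to 0.86). The test of whether the effect of restoration differed between *Trp53* backgrounds gave no member with an unadjusted p under 0.05, where 3.08% of 13706 genes had one and no gene was called by either tool (0.0%). For *Prkaa2* this interaction was 0.47 (SE 0.82, interval -1.22 to 2.16), which does not show that the effects were alike.

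The largest differences were between *Trp53* backgrounds. For *Prkaa2*, Trp53-deficient non-restored minus non-restored gave a log2 difference of -2.23 (SE 0.63, interval -3.53 to -0.92). It missed the threshold by edgeR (adjusted p = 0.0949, where 0.584% of 13706 genes were called) and passed it by DESeq2 (adjusted p = 0.00471, where 3.06% were called). It was the 1 member of 6 with an unadjusted p under 0.05, against 17.7% of all genes. No member had groups that did not overlap, as 0.679% of genes had. Without non-restored replicate 8 the log2 difference was -2.37 and the adjusted edgeR p was 0.0150, and 10.8% of 13429 genes were then called. Without replicate 4 it was -2.35 and 0.0418, with 2.18% of 13825 genes called. Leaving out Trp53-deficient non-restored animals 1 to 4 in turn gave -2.09 (adjusted edgeR p = 0.227), -2.75 (0.0628), -2.02 (0.221) and -2.19 (0.343). Without both replicate 8 and Trp53-deficient non-restored animal 4 the log2 difference was -2.33 and the adjusted p 0.0767, with 131 of 14094 genes called. With vehicle samples alone in both backgrounds (2 animals against 6 libraries) it was -1.90, with an adjusted edgeR p of 0.643, and with tamoxifen samples alone (2 animals against 4 libraries) it was -2.75, with an adjusted p of 0.326. In restored tumors the difference between backgrounds was -1.76 (SE 0.63, interval -3.06 to -0.46, adjusted edgeR p = 0.202), and *Prkag2* differed by -0.72 (SE 0.28, interval -1.31 to -0.13, adjusted p = 0.241). No member was called there, where 0.372% of genes were by edgeR and 1.58% by DESeq2, while 2 of 6 members and 15.5% of genes had an unadjusted p under 0.05. All members overlapped in restored tumors as well, and 3.12% of genes did not. *Prkaa1* differed by 0.12 (SE 0.17) in the first and 0.22 (SE 0.18) in the second of these comparisons. Over the 6 members the medians were 0.07 and -0.02, beside -0.02 and 0.00 over all genes.

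The pooled non-restored arms were compared as a control. No member had an unadjusted p under 0.05, where 4.61% of genes did, 0.00791% were called by edgeR and 0.095% by DESeq2. The log2 differences of tamoxifen without FLPo-ERT2 minus vehicle with it ran from -0.03 for *Prkab2* to 0.20 for *Prkag2*. The *Prkaa2* interval was wide, from -1.24 to 1.21.

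The paralog shares show which gene supplied each class. They are shares of summed TPM within a class, given without a test. *Prkaa2* made up 28.8 ± 6.81% (SD, n = 4) of alpha TPM in KT tumors, 22.01 ± 11.1% (n = 10) in non-restored and 29.8 ± 12.7% (n = 7) in restored tumors. It made up 5.40 ± 3.46% (n = 4) in Trp53-deficient non-restored and 10.4 ± 7.04% (n = 4) in Trp53-deficient restored tumors. *Prkaa1* was the larger alpha gene in all 29 samples, and the lowest *Prkaa2* share was 2.55%, in a non-restored library. Summed alpha TPM overlapped in all groups, with means from 28.0 TPM in KT to 34.2 TPM in non-restored tumors. *Prkab2* supplied 5.82 to 7.03% of beta TPM on average in the 5 groups, so *Prkab1* dominated the class throughout. *Prkag2* made up 57.5 ± 12.9% of gamma TPM in KT, 41.4 ± 13.1% in non-restored and 51.6 ± 14.7% in restored tumors, with ranges of 47.3 to 76.2%, 26.9 to 63.2% and 32.2 to 66.3% that overlapped. In Trp53-deficient tumors it made up 39.7 ± 7.05% without and 37.2 ± 6.61% with restoration. Of gamma counts, *Prkag2* made up 60.0 ± 12.8% in KT, 47.0 ± 9.10% in non-restored and 58.7 ± 6.57% in restored tumors. The ranges by counts were 46.3 to 73.4%, 29.3 to 59.1% and 51.1 to 70.3%, and also overlapped. In Trp53-deficient tumors the count shares were 40.1 ± 6.29% without and 43.9 ± 5.71% with restoration.

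**Figure D3:**
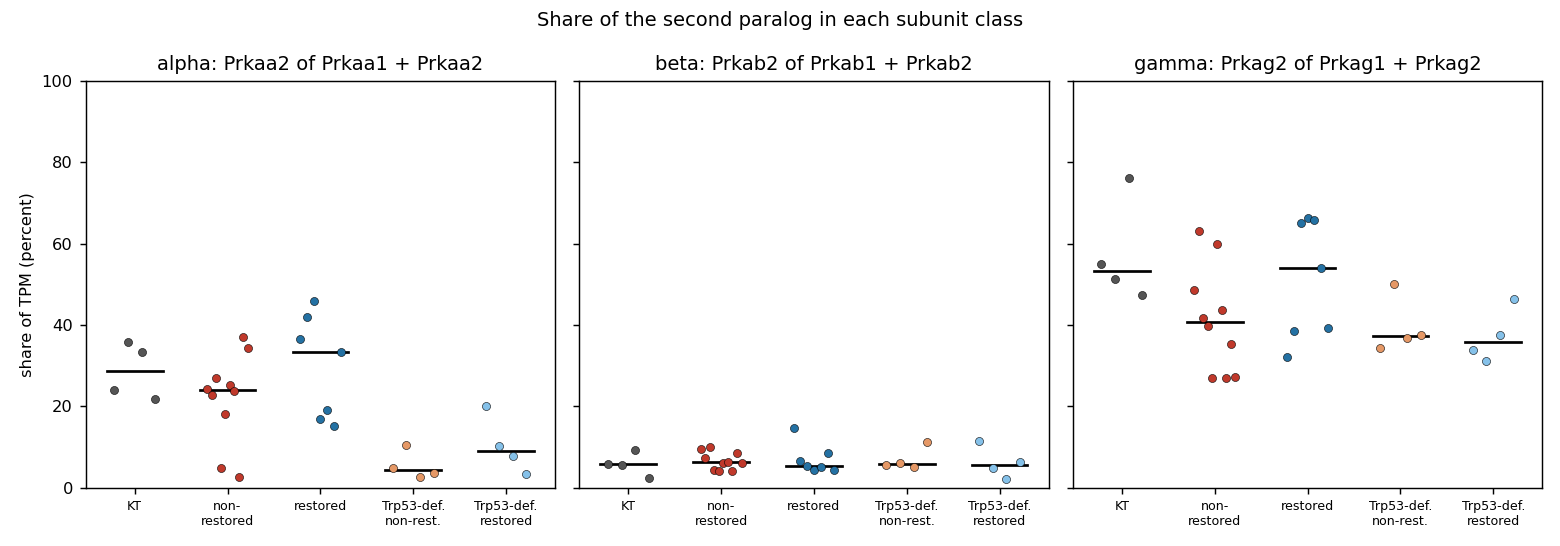
Share (percent of summed TPM) of *Prkaa2*, *Prkab2* and *Prkag2* in the alpha, beta and gamma class of each of the 29 samples, by group; bars are medians. *Prkaa2* is between 2.62 and 10.4% in the 4 Trp53-deficient non-restored animals, and *Prkab2* is under 15% in every sample.

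Across samples, *Prkaa2* moved with the level of alveolar type II markers. Over 29 samples, log2 CPM of *Prkaa2* and the log2 summed TPM of the 8 alveolar type II markers had Pearson's r = 0.76 and Spearman's rho = 0.81, and r = 0.82 without the 2 samples whose marker sums were farthest from the median. Within the 10 non-restored libraries r was 0.82 and rho 0.35, and replicates 4 and 8 were lowest both in marker sum and in *Prkaa2*. The link was not particular to these markers. *Prkaa2* also had r = 0.57 (rho 0.52) with the muscle sum and r = 0.47 (rho 0.39) with the fibroblast sum. Without the 2 farthest samples these r were 0.61 and 0.25. Within the non-restored libraries its r with the fibroblast sum was 0.82 (rho 0.44). The 4 epithelial markers (*Epcam*, *Cdh1*, *Krt8*, *Krt18*) went the other way, with r = -0.73 and rho = -0.74. *Prkaa1* had the opposite signs (r = -0.70 and rho = -0.49 with the alveolar sum, r = 0.54 and rho = 0.47 with the epithelial sum), and its r with the alveolar sum was -0.43 without the 2 farthest samples. *Prkag2* had r = 0.54 and rho = 0.53 with the alveolar sum, and r = 0.51 without those 2 samples. With the muscle sum *Prkag2* had r = 0.45 (rho 0.41). Within the non-restored libraries its r was 0.65 with the muscle and 0.47 with the alveolar sum. The alveolar sums also differed by group: 6577 to 43514 TPM in Trp53-deficient non-restored against 5962 to 99006 in non-restored tumors, and 43630 to 69975 TPM in Trp53-deficient restored against 55568 to 131315 in restored tumors. Their part in the *Prkaa2* differences was not tested. The 29 points fall into the 5 groups and come from libraries of different depth, so these values are descriptions. Among the 15 pairs of members, *Prkaa2* and *Prkag2* had the highest r, 0.62 (rho 0.57), and *Prkaa2* and *Prkab1* the lowest, -0.47 (rho -0.54). After group means were removed these r were 0.40 and -0.58.

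**Figure D4:**
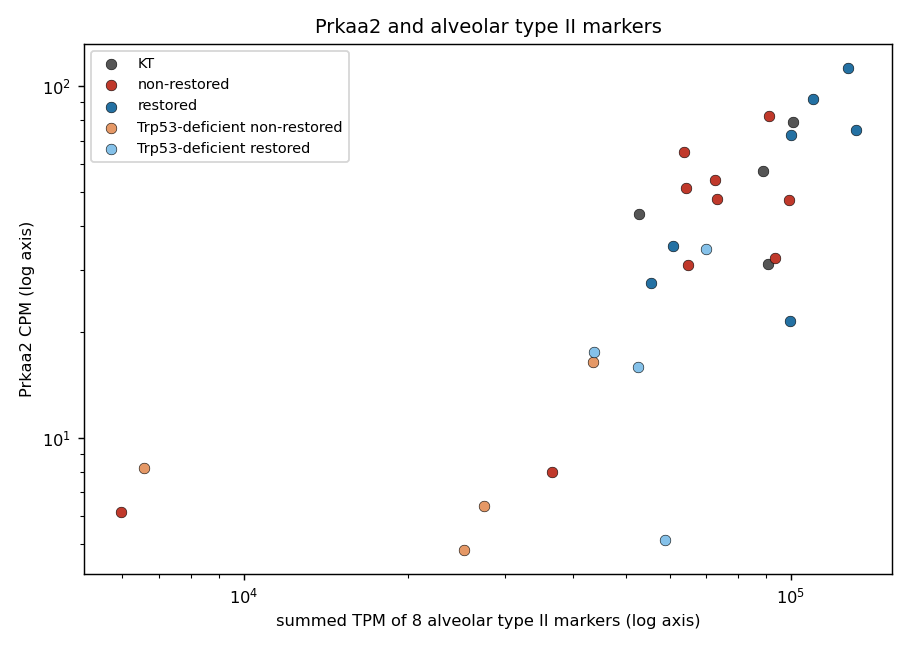
*Prkaa2* CPM against the summed TPM of 8 alveolar type II markers (both log axes) in 29 samples, colored by group. The samples with the lowest marker sums, at 5962 and 6577 TPM, have 6.16 and 8.22 CPM of *Prkaa2*.

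The genes whose pattern was most like each member were sought among 8614 genes with a mean of at least 10 CPM, by Pearson's r of log2 CPM over the 29 samples. For *Prkaa2* these were *Ubr1*, a ubiquitin ligase (r = 0.93, rho = 0.93), and *Tex15*, a gene known from the germ line (r = 0.92, rho = 0.92), and after group means were removed r was 0.89 for both. For *Prkag2* they were *Gpd1*, a glycerol phosphate dehydrogenase (r = 0.81), and *Gstt1*, a glutathione transferase (r = 0.80). After group means were removed these r fell to 0.65 and 0.58. For *Prkaa1* they were *Tmem63a* (r = 0.80) and *Mapk1ip1l* (r = 0.78), and for *Prkab1* *Washc2* (r = 0.81) and *Rpl4* (r = 0.79). *Prkab2* and *Prkag1* had no close match, with *Dot1l* (r = 0.67) and *Elf2* (r = 0.67), and *Nfs1* (r = 0.58) and *Nol10* (r = 0.57).

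The rest of the pathway was read from 6 lists that, with *Prkag3* and without *Stk11*, held 81 genes, of which 75 were tested in Trp53 wild-type tumors. In restored against non-restored tumors 1 of them was higher and none lower by edgeR, where 1.87% of all genes were called. In unadjusted terms 13 of the 75 had p under 0.05, against 15.1% of all genes. The called gene was *Fnip1*, a partner of folliculin that binds AMPK, at 96.0 ± 12.9 CPM (n = 10) in non-restored and 131 ± 20.9 CPM (n = 7) in restored tumors, whose ranges overlapped. Its log2 difference was 0.44 (SE 0.11, adjusted edgeR p = 0.0299), and the call was lost without any 1 of restored replicates 1, 2, 3, 6 and 7 (adjusted p from 0.0575 to 0.0798). Its KT level was 121 ± 15.7 CPM (n = 4). Among the 13 genes of recruitment, sensing and turnover it was the 1 called in this comparison. In non-restored against KT tumors 4 of the 75 were lower and none higher, where 5.86% of all genes were called, and 17 had an unadjusted p under 0.05, against 20.8% of all genes. The 4 called genes were 3 of 23 direct substrates and 1 of 7 adenylate enzymes. *Hdac7*, a class IIa histone deacetylase, had 63.0 ± 10.8 CPM in KT and 31.5 ± 9.05 CPM in non-restored tumors (log2 difference -0.99, SE 0.20, adjusted p = 0.00381). *Pfkfb3*, an enzyme that makes the glycolytic activator fructose 2,6-bisphosphate, had 60.1 ± 37.4 CPM and 18.7 ± 5.82 CPM (log2 difference -1.70, SE 0.31, adjusted p = 0.00221). *Txnip*, an inhibitor of glucose uptake, had 1131, 398, 420 and 576 CPM in KT replicates 1 to 4 and 342 ± 81.0 CPM in non-restored tumors (log2 difference -0.88, SE 0.23, adjusted p = 0.0263). Without KT replicate 1, the highest library, the log2 difference was -0.43 (adjusted edgeR p = 0.331), and without KT replicate 4 the adjusted p was 0.0528. Female libraries alone gave -0.30 for *Txnip* (adjusted p = 0.693). The other 3 calls of this comparison held without each library in turn. *Ak1*, an adenylate kinase, had 15.7 ± 6.28 CPM in KT, 4.01 ± 2.15 CPM in non-restored and 4.33 ± 1.93 CPM in restored tumors. Its counts were low: non-restored replicate 8 had 0.68 CPM, where 3 counts make 0.66 CPM. The gene did not pass a stricter filter of at least 10 counts in every library. It was lower than in KT both in non-restored (log2 difference -1.97, SE 0.39, adjusted p = 0.00392) and in restored tumors (log2 difference -1.86, SE 0.42, adjusted p = 0.0499), and was the 1 pathway gene called in the latter comparison, where 0.459% of all genes were. The restored call was lost in 10 of 11 fits without 1 library, most so without KT replicate 1 (log2 difference -1.54, adjusted p = 0.295).

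The other lists gave no call in these comparisons by edgeR. In Trp53-deficient tumors restoration called none of 74 pathway genes, with 9 at an unadjusted p under 0.05, where 0.0% of all genes were called and 5.98% passed unadjusted. The interaction called none of 75, with 0 at an unadjusted p under 0.05, against 3.08% of all genes. Of the 12 genes of the mTORC1 arm, the smallest p on restoration were those of the mTOR inhibitor *Deptor* (log2 difference 0.40, adjusted p = 0.161), the TSC complex gene *Tsc1* (0.23, adjusted p = 0.284) and the mTORC1 scaffold *Rptor* (-0.31, adjusted p = 0.291), all by edgeR. The list of mitochondria and fatty acid oxidation, which also held the glucose transporter gene *Slc2a1*, had 13 tested genes. Its smallest p on restoration, by edgeR, were those of *Slc2a1* (log2 difference -1.05, adjusted p = 0.184), the transcription factor gene *Ppara* (0.81, adjusted p = 0.254) and the mitochondrial fatty acid importer *Cpt1a* (-0.41, adjusted p = 0.268). The 7 other genes listed with *Stk11*, which are its partners and the other upstream kinases, held no call either. Between *Trp53* backgrounds, 1 of 75 pathway genes was called: *Sesn2*, a sestrin and known p53 target, at 22.6 ± 7.81 CPM in non-restored and 8.69 ± 2.02 CPM in Trp53-deficient non-restored tumors (log2 difference -1.35, SE 0.29, adjusted p = 0.0350), where 0.584% of all genes were called. That call was lost in 11 of 14 fits without 1 sample, with an adjusted p of 0.183 without Trp53-deficient non-restored animal 4 and of 0.0734 or less in the others. The median over the 75 pathway genes was 0.02 on restoration and 0.00 on loss of *Lkb1*, beside -0.01 and 0.03 over all genes tested. Between *Trp53* backgrounds it was -0.16 in non-restored and -0.20 in restored tumors, beside -0.02 and 0.00 over all genes, and 20 and 16 of the 75 had an unadjusted p under 0.05, against the 17.7% and 15.5% of all genes given above. None of the 75 was called in restored tumors between backgrounds or between the control arms, where 3 had an unadjusted p under 0.05.

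**Figure D5:**
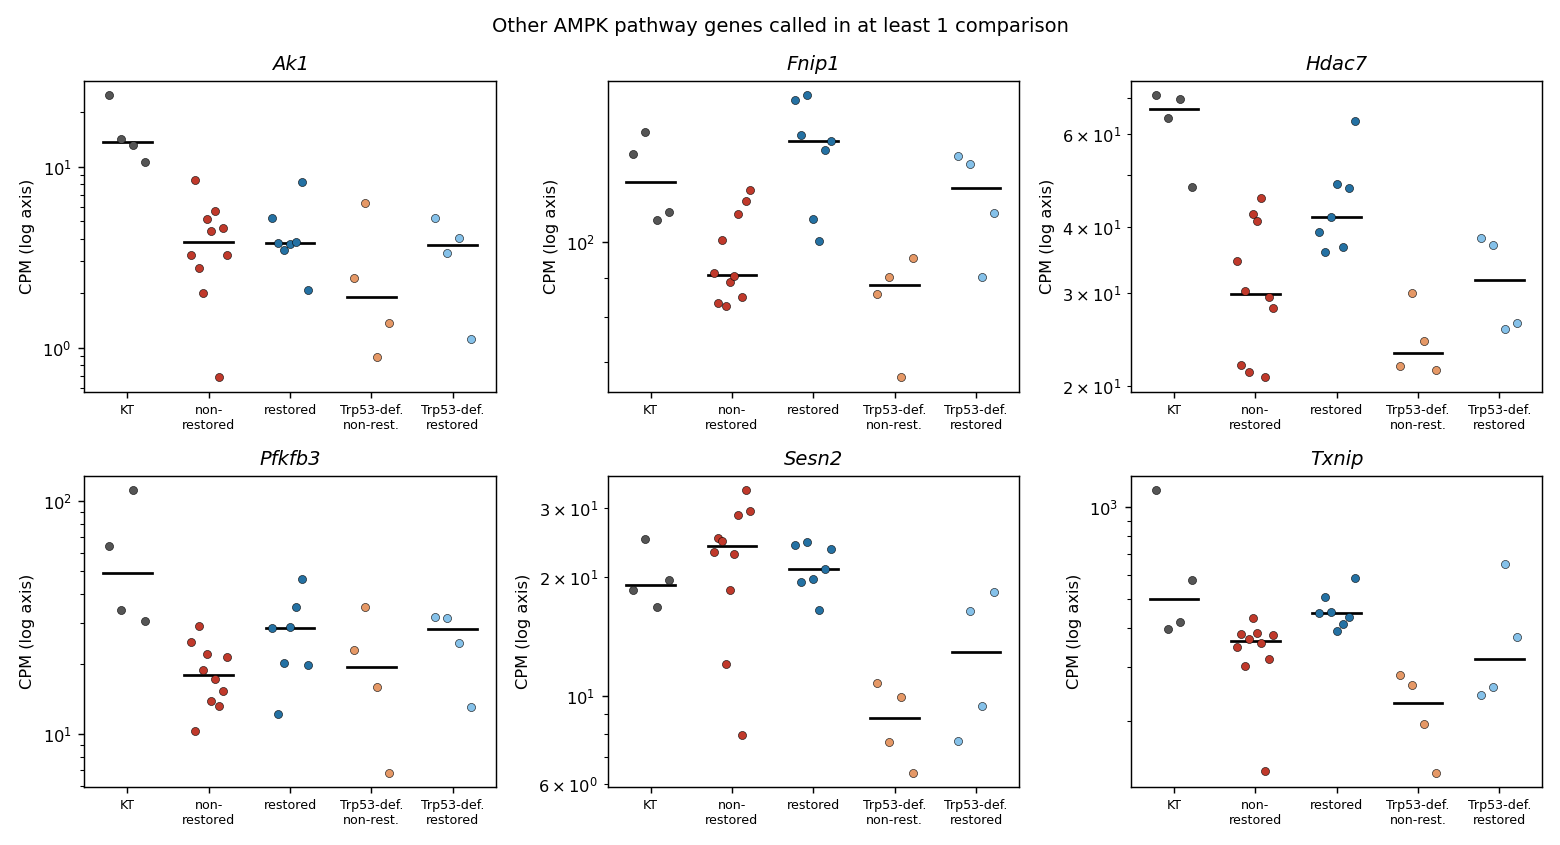
CPM (log axes) of the 6 other AMPK pathway genes called in at least 1 comparison, in each of the 29 samples by group; bars are medians. *Ak1* is at 10.5 CPM or more in the 4 KT libraries and at 8.39 CPM or less in all non-restored libraries.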

How the data were processed

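RNA from sorted tumor cells was converted with a kit for low input (2 to 10 ng) that depletes rRNA, and samples with an RNA integrity number under 7 were left out by the study. The authors aligned reads to mm10 with STAR 2.6.1d and quantified genes with RSEM 1.2.30. They deposited expected counts, TPM and effective lengths per gene. TPM is scaled per transcript length, and effective length is RSEM's estimate in bases. The series-wide tables of the authors, 4 with fold changes and p-values of their DESeq2 1.26.0 comparisons and 1 with normalized counts, were not used here.

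Expected counts were rounded, libraries of the same Trp53-deficient non-restored animal (by title) were summed, giving 29 samples, and edgeR 4.0.16 was fitted to all genes passing filterByExpr, with TMM scaling, quasi-likelihood F tests and Benjamini-Hochberg adjustment at 0.05. Trp53 wild-type comparisons used 21 libraries in 3 groups, the comparison within Trp53-deficient tumors 8 samples, and those across backgrounds 25 samples. The SEs for edgeR were derived as the size of the log2 difference over the square root of F, and the 95% intervals from t quantiles. CPM used TMM over the 29 samples, and log2 CPM used a prior count of 2. DESeq2 1.42.0, limma 3.58.1 on log2(TPM + 1), other scalings, filters, covariates, arms and leaving out each sample were alternatives. On simulated counts for restored against non-restored tumors (12349 genes), 58.6% of genes changed by a log2 fold of 1 and 87.6% of those changed by 2 were recovered. At a log2 fold of 1 recovery was lower elsewhere: 45.9% for non-restored against KT (12299 genes), 35.7% for restored against KT (12255), 23.2% for restoration in Trp53-deficient tumors (12174), 16% for the interaction (13527), 42% and 39.4% between backgrounds in non-restored (13539) and restored tumors (13549), and 38.5% between the control arms (12242). The changed genes were drawn at random from those tested, so these rates do not stand for single members such as the more variable *Prkaa2*. No pair of libraries was a duplicate (lowest chi-square per degree of freedom 4.22).

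The members, the gene lists and the tests were chosen with earlier results of these data known. Named genes were the 6 members, *Prkag3*, *Stk11*, called genes of the other lists (otherwise up to 3 with the smallest p), and for each member the 2 genes most like it. An allele shared by all groups and a marker gene are not reported here.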

Additional observations from a re-analysis of the deposited data

Results flagged for a closer look

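One value among the members lay far from its group. *Prkaa1* in Trp53-deficient restored sample 3 had 117 CPM, whereas the other 3 samples of that group had 78.3 to 83.4 CPM. The gap to the nearest sample was 0.842 of the group's whole range on the log2 scale. Of 30 sets of values examined in this way (6 genes in 5 groups), 1 was picked out, and chance picks out about 1 in 20.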

How the results depend on the processing

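The members gave no call by edgeR in any comparison, and the alternatives that gave one were all for *Prkaa2* in Trp53-deficient non-restored minus non-restored: DESeq2 (-2.24, adjusted p = 0.00471), each library on its own (-2.18, 0.0245), and leaving out non-restored replicate 8 (-2.37, 0.0150) or 4 (-2.35, 0.0418). With each library on its own, 7 Trp53-deficient non-restored libraries from 4 animals were treated as separate samples. The p of that fit therefore does not measure the spread between animals. Over all alternatives of that *Prkaa2* difference, limma's -1.58 was the smallest in size and -2.75 the largest. Its adjusted edgeR p ran from 0.015 to 0.343 when each sample was left out in turn. Of 498 member values under alternatives other than leaving out a sample, 450 kept sign and call, 46 turned sign without a call and 2 gained one. Counts per library fell as low as 5 for *Prkaa2*, 10 for *Prkab2*, 11 for *Prkag2* and 15 for *Prkag1*, which limits the precision of these genes. The causes of these changes were not tested. The pathway genes called were put through the alternatives after the data had been seen, and none turned sign. Alternatives other than leaving out a sample ended the call in 5 of 12 for *Fnip1*, 6 of 9 for *Ak1* in restored and 2 of 11 in non-restored minus KT, 3 of 12 for *Hdac7*, 6 of 12 for *Txnip*, 0 of 12 for *Pfkfb3* and 3 of 11 for *Sesn2*.

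Genes called numbered 236 for restored minus non-restored, 741 for non-restored minus KT, 58 for restored minus KT, 0 for restoration in Trp53-deficient tumors, 0 for the interaction, 80 for Trp53 in non-restored tumors, 51 for Trp53 in restored tumors and 1 for the control arms, where Trp53 stands for the difference between Trp53 backgrounds. With DESeq2, the genes called came to 467 for restored minus non-restored, 168 for restored minus KT, 23 for restoration in Trp53-deficient tumors, 419 for Trp53 in non-restored tumors, 216 for Trp53 in restored tumors and 12 for the control arms, and the sign turned for *Prkab1* at -0.0032 for restoration in Trp53-deficient tumors. With at least 10 counts in every library, the genes called came to 20 for restored minus KT. With each Trp53-deficient library on its own, the genes called came to 1 for restoration in Trp53-deficient tumors and 465 for Trp53 in non-restored tumors, and the sign turned for *Prkaa1* at 0.054 for restoration in Trp53-deficient tumors. With effective length offsets, the genes called came to 1 for restoration in Trp53-deficient tumors, and the sign turned for *Prkag1* at 0.070 for restored minus non-restored, *Prkab2* at -0.065 for restored minus KT, *Prkag2* at -0.12 for restoration in Trp53-deficient tumors, *Prkag1* at -0.016 for the interaction, *Prkag1* at -0.032 for Trp53 in non-restored tumors, *Prkag1* at -0.048 for Trp53 in restored tumors, *Prkaa2* at 0.0046 and *Prkab2* at 0.042 for the control arms. With female libraries alone, the genes called came to 132 for non-restored minus KT, 10 for restored minus KT, 1 for the interaction and 43 for Trp53 in non-restored tumors, and the sign turned for *Prkab1* at -0.0045 for restored minus non-restored, *Prkag1* at 0.49 for non-restored minus KT, *Prkaa2* at -0.13, *Prkab2* at -0.24 and *Prkag1* at 0.41 for restored minus KT, *Prkab1* at -0.13 for restoration in Trp53-deficient tumors, *Prkag2* at -0.058 for the control arms. With limma on log2(TPM + 1), the genes called came to 1 for restoration in Trp53-deficient tumors, 39 for Trp53 in non-restored tumors and 0 for the control arms, and the sign turned for *Prkab2* at 0.077 and *Prkag1* at 0.054 for non-restored minus KT, *Prkag1* at 0.023 for restored minus KT, *Prkab1* at -0.018, *Prkag1* at -0.014 and *Prkag2* at -0.16 for restoration in Trp53-deficient tumors, *Prkag1* at -0.032 for Trp53 in non-restored tumors, *Prkag1* at -0.015 for Trp53 in restored tumors, *Prkab1* at -0.010 for the control arms. With median-of-ratios size factors, the sign turned for *Prkab1* at -0.00066 for restoration in Trp53-deficient tumors. With no filter on low counts, the genes called came to 3 for restoration in Trp53-deficient tumors and 0 for the control arms, and the sign turned for *Prkab1* at -0.022 for restoration in Trp53-deficient tumors, *Prkaa2* at 0.018 and *Prkab2* at 0.0081 for the control arms. With the tamoxifen arm alone in both backgrounds, the genes called came to 50 for restored minus non-restored, 280 for non-restored minus KT and 14 for Trp53 in non-restored tumors, and the sign turned for *Prkab1* at -0.021 for restoration in Trp53-deficient tumors, *Prkaa1* at -0.082 and *Prkag2* at 0.12 for the interaction, *Prkag1* at -0.17 for Trp53 in non-restored tumors. With the vehicle arm alone in both backgrounds, the genes called came to 1 for the interaction and 13 for Trp53 in non-restored tumors, and the sign turned for *Prkaa1* at 0.22, *Prkab1* at -0.00026, *Prkab2* at 0.038 and *Prkag2* at -0.054 for restoration in Trp53-deficient tumors, *Prkaa1* at -0.13 for Trp53 in non-restored tumors. With only the 2 groups compared in the fit, the genes called came to 0 for the control arms. With sex as a covariate, the genes called came to 22 for restored minus KT and 0 for the control arms, and the sign turned for *Prkag1* at 0.016 for non-restored minus KT, *Prkaa1* at -0.00065, *Prkab2* at -0.11 and *Prkag1* at 0.012 for restored minus KT, *Prkab2* at 0.079 for the control arms. Without both samples low in alveolar type II markers (chosen after seeing the data), the genes called came to 131 for Trp53 in non-restored tumors, and the sign turned for *Prkab2* at -0.068 and *Prkag1* at -0.0042 for Trp53 in non-restored tumors.

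As shares of counts in place of TPM, which are not scaled for length, the shares moved by more than 1 SD, with *Prkaa2* at 41.2% in KT and 9.015% in Trp53-deficient non-restored, *Prkab2* at 13.49% in KT, 16.48% in restored and 15.51% in non-restored tumors, and at 14.44% with and 16.23% without restoration where Trp53 was deleted, *Prkag2* at 43.86% in Trp53-deficient restored.

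Leaving out each sample in turn, genes called ran from 145 to 319 for restored minus non-restored, 340 to 951 for non-restored minus KT, 21 to 57 for restored minus KT, 0 to 1 for restoration in Trp53-deficient tumors, 0 to 1 for the interaction, 26 to 1448 for Trp53 in non-restored tumors, 25 to 64 for Trp53 in restored tumors, 0 to 1 for the control arms. Changes beyond 1.5 times were for restored minus non-restored 157 without restored 1, 155 without restored 2 and 145 without restored 7, for non-restored minus KT 459 without KT 4, 340 without KT 1 and 418 without KT 3, for restored minus KT 22 without KT 4, 21 without KT 1 and 37 without restored 1, for restoration in Trp53-deficient tumors 1 without Trp53-deficient non-restored 3, for the interaction 1 without Trp53-deficient non-restored 2 and 1 without non-restored 9, for Trp53 in non-restored tumors 26 without Trp53-deficient non-restored 1, 162 without Trp53-deficient non-restored 2, 38 without non-restored 10, 50 without Trp53-deficient non-restored 3, 36 without non-restored 9, 46 without non-restored 2, 301 without non-restored 4, 27 without Trp53-deficient non-restored 4, 33 without non-restored 6, 33 without non-restored 1, 43 without non-restored 3, 32 without non-restored 7 and 1448 without non-restored 8, for Trp53 in restored tumors 25 without Trp53-deficient restored 3, for the control arms 0 without each of non-restored 1, 4, 5, 6, 7, 8, 9 and 10. The member differences that turned sign ran as follows, none with a call: *Prkab1* from -0.010 to 0.21 for restored minus non-restored, *Prkab2* from -0.43 to 0.15 and *Prkag1* from -0.33 to 0.23 for non-restored minus KT, *Prkab2* from -0.25 to 0.34 and *Prkag1* from -0.44 to 0.12 for restored minus KT, *Prkaa1* from -0.20 to 0.067, *Prkab1* from -0.14 to 0.13, *Prkab2* from -0.67 to 0.083 and *Prkag1* from -0.18 to 0.28 for restoration in Trp53-deficient tumors, *Prkaa1* from -0.056 to 0.24, *Prkaa2* from -0.053 to 0.98 and *Prkag1* from -0.095 to 0.38 for the interaction, *Prkaa1* from -0.019 to 0.22, *Prkab2* from -0.016 to 0.54 and *Prkag1* from -0.027 to 0.083 for Trp53 in non-restored tumors, *Prkab1* from -0.074 to 0.20, *Prkab2* from -0.50 to 0.071 and *Prkag1* from -0.067 to 0.40 for Trp53 in restored tumors, *Prkaa1* from -0.13 to 0.27, *Prkaa2* from -0.61 to 0.36, *Prkab1* from -0.091 to 0.26 and *Prkab2* from -0.17 to 0.10 for the control arms.

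With a replicate block, genes called were 270 for restored minus non-restored, 705 for non-restored minus KT and 67 for restored minus KT, and no member was called. Same-numbered libraries did not all deviate together (r from -0.0539 to 0.499 over 15 pairs, 6 of them over 0.1), and 2 of 18 libraries correlated best with their own number in another group, so the numbers were not treated as a pairing.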
